A study of Mus musculus with 32 samples.

Results

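The comparison described here sets induced pluripotent stem cells (iPSC) made from mouse embryonic fibroblasts by chemical reprogramming with DMSO added, the DMSO iPSC, against R1, an embryonic stem cell (ESC) line from a mouse blastocyst. It covers 4 of the 32 samples of the series, 2 libraries of each line, and every gene in the table that holds them. The DMSO iPSC are labelled as embryonic-fibroblast cells of OG2X129 origin. The column names spell their group "DMSP", read here as DMSO because the genotype label gives DMSO addition. Their reprogramming medium held serum and serum replacement, basic FGF, valproic acid, CHIR99021, 616452, Parnate, Forskolin, AM580, EPZ004777 and vitamin C. R1 received no reprogramming treatment that the labels name, and no culture medium of R1 or of the established iPSC is given separately, so line, origin and culture cannot be told apart. The same table holds 2 libraries of iPSC reprogrammed with CD (the labels' abbreviation) in place of DMSO and 2 of the starting fibroblasts (MEF). These 4 libraries helped to estimate the spread, and their levels are given beside those of the lines compared. The labels do not say whether the libraries of a line came from separate cultures or clones, so p-values measure the spread between these libraries alone.

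Mouse pluripotent stem cells are held by a core network of the transcription factors Pou5f1 (Oct4), Sox2 and Nanog. Around it lie a naive state, as in the preimplantation epiblast, a formative or primed state, reached as FGF and ERK signalling prepare cells to differentiate, and a rare fluctuating state with genes of the two-cell embryo. A cell reprogrammed from a fibroblast has to silence the collagen and contractile genes of its origin and rebuild these states. iPSC are commonly set against an ESC line to ask how near they come to it, with imprinted genes, X-linked genes and leftover somatic transcripts among the usual points of comparison.

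The levels are TPM, transcript abundances that the authors normalised for length and depth, and sequencing depth cannot be known from them. Each library held 14725 to 14796 genes at 1 TPM or more in the 4 libraries compared. Mitochondrially encoded genes took 17.4% and 16.2% of the TPM in DMSO iPSC, against 13.4% and 11.9% in R1. Across genes, log2(TPM + 1) correlated at 0.984 between the DMSO iPSC libraries and 0.986 between the R1 libraries, and at 0.955 to 0.958 between the lines. These values describe genes of the same libraries, which are not independent replicates. The defining pluripotency genes were high in both lines, as given below, while Pou5f1 was listed at 0 in MEF.

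Of 17414 genes tested, 1650 (9.48%) rose in DMSO iPSC and 1226 (7.04%) fell, 16.5% in all, with limma on log2(TPM + 1) and a Benjamini-Hochberg adjusted p under 0.05. With a change of at least 2-fold as well, 746 genes (4.28%) rose and 458 (2.63%) fell. For each called gene the libraries of the lines did not overlap, so a lack of overlap given below for a called gene adds nothing to its call. These counts are relative to the median gene, since the libraries were rescaled. In the deposited scaling the median gene stood at -0.13 on the log2 scale, against 0.02 after rescaling, and 1101 genes rose (6.32%) while 2567 fell (14.7%), so that the share of calls that were higher was 30.0%, against 57.4% after rescaling. Both scalings called 1099 genes higher and 1226 lower. The counts also rested on having both libraries of each line: they were 530 higher (3.04%) and 359 lower (2.06%) without DMSO iPSC replicate 1, 466 (2.68%) and 323 (1.85%) without DMSO iPSC replicate 2, 523 (3%) and 302 (1.73%) without R1 replicate 1, and 513 (2.95%) and 292 (1.68%) without R1 replicate 2. Calls kept without each of the 4 libraries in turn numbered 332 higher and 194 lower. Unless said otherwise, the genes described below as changed kept their call in both scalings and without any 1 of the 4 libraries. The counts of each list below are to be set beside 9.48% of all genes called higher and 7.04% called lower. As deposited these shares were 6.32% and 14.7%.

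**Figure D1:**
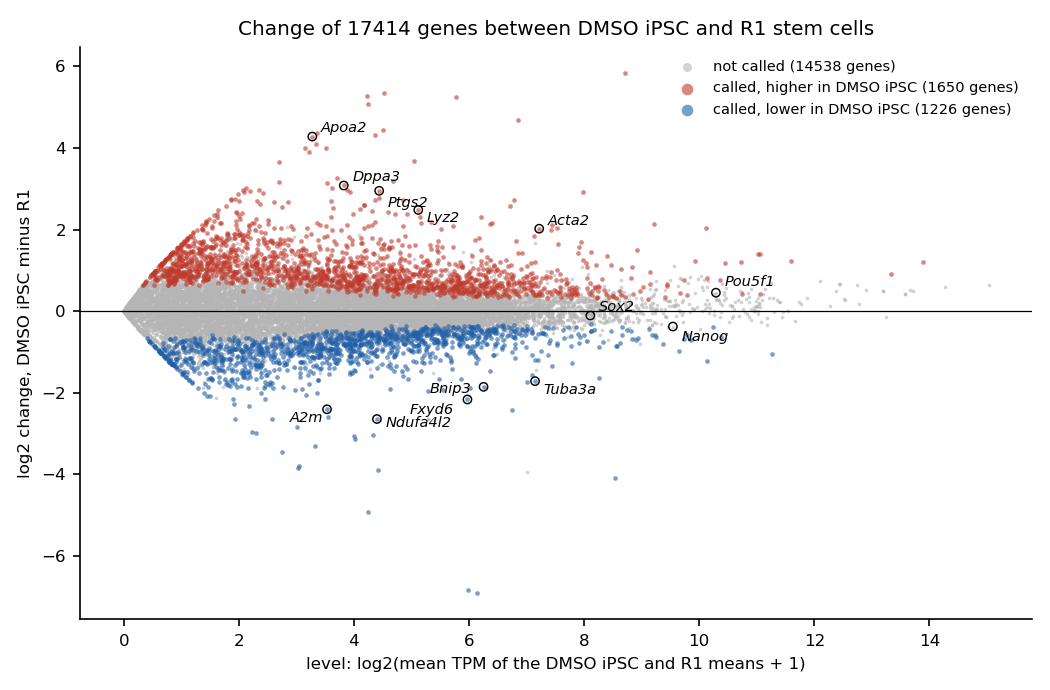
Log2 change (DMSO iPSC minus R1, relative to the median gene) of each of 17414 genes against its level, with the 1650 genes called higher in red and the 1226 called lower in blue. Circled genes are named in the text. Pou5f1, Sox2 and Nanog lie among the genes not called, while Apoa2, Dppa3 and Ptgs2 lie above and Ndufa4l2, A2m and Bnip3 below.

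None of the 3 core factors, Pou5f1, Sox2 and Nanog, was called between the lines, and all were high in both. Pou5f1 was at 1275 and 1446 TPM in DMSO iPSC, against 1087 and 1199 TPM in R1 (log2 change 0.45 ± 0.13 SE, adjusted p = 0.0582). Sox2 was at 240.5 and 251 TPM in DMSO iPSC, against 288 and 320.3 TPM in R1 (-0.11 ± 0.11, adjusted p = 0.528). Nanog was at 618 and 578 TPM in DMSO iPSC, against 882 and 903 TPM in R1 (-0.38 ± 0.13, adjusted p = 0.0954). Nanog thus lay lower in both iPSC libraries but was not called relative to the median gene; in the deposited scaling it was called lower (-0.58, adjusted p = 0.0229). Of the 20 core pluripotency genes tested, 5 were called higher and 3 lower, with a median change of 0.24 (0.04 as deposited, with 4 called higher and 5 lower). Without any 1 library these counts were 0 to 2 higher and 0 to 1 lower. The 5 were Sall4, Mybl2, Utf1, Lin28a and Tdh, and the 3 were Tdgf1, Epcam and Zfp42; each lost its call without at least 1 library. Utf1, a chromatin-associated factor of undifferentiated cells, had 553 and 530.5 TPM in DMSO iPSC, against 338 and 369.6 TPM in R1. Tdgf1, the Nodal co-receptor Cripto, had 649 and 644 TPM in DMSO iPSC, against 1272 and 1162 TPM in R1. For both genes the libraries of the lines did not overlap, and the adjusted p without each of the 4 libraries ranged from 0.055 to 0.0696 for Utf1 and from 0.041 (without R1 replicate 2) to 0.0692 for Tdgf1.

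Within the naive network 5 of 24 genes were called higher and 3 lower (4 and 6 as deposited), with a median of -0.00 against 0.02 over all genes, and with 2 to 3 higher and 1 lower without any 1 library. The largest change was in Dppa3 (Stella, chr6:122626410-122630272, GRCm38), a maternal factor that guards DNA methylation in the early embryo. Dppa3 had 26.7 and 21.2 TPM in DMSO iPSC, against 3.21 and 1.55 TPM in R1 (3.08 ± 0.27, adjusted p = 0.00124). CD iPSC held it at 28.3 and 21.8 TPM, and it was listed at 0 in MEF. R1 was thus the low line among the 3 pluripotent ones. Gbx2, a homeobox gene that responds to LIF and STAT3, had 37.7 and 38.9 TPM in DMSO iPSC, against 14.9 and 16.4 TPM in R1 (1.43 ± 0.18, adjusted p = 0.00442; 0.156 with a pseudocount of 0.1), and 4.13 and 3.44 TPM in CD iPSC. Pecam1, an adhesion receptor of naive cells as well as of endothelium, fell to 36.3 and 37.9 TPM in DMSO iPSC, against 75.3 and 74.5 TPM in R1 (-0.80 ± 0.11, adjusted p = 0.0051). Klf4, Esrrb, Tfcp2l1, Tbx3 and Prdm14, further factors of the naive circuit, were not called; Esrrb, for instance, had 184.5 and 229.6 TPM in DMSO iPSC, against 239.9 and 316 TPM in R1, with the sign of its difference the same in both libraries but a standard error of 0.15 on a change of -0.22.

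Of 24 formative and primed genes tested, 10 were called higher (41.7%, against 9.48% of all genes) and 1 lower, with a median of 0.56 (0.41 as deposited). Without any 1 library 3 were higher in each case. Zic2, a zinc-finger factor of the formative epiblast, had 18.6 and 17.5 TPM in DMSO iPSC, against 4.47 and 4.33 TPM in R1 (2.00 ± 0.15, adjusted p = 0.000726). Its relative Zic5 had 8.91 and 7.86 TPM in DMSO iPSC, against 3 and 3.48 TPM in R1 (1.31 ± 0.18, adjusted p = 0.00608; 0.0948 with a pseudocount of 0.1). Both Zic genes were higher in each iPSC library than in either R1 library, and both were at most 0.261 TPM in MEF. Of the other members called with all 4 libraries, Fst, Cdh2 and Sox4 stood at 13%, 9.13% and 9.82% of their MEF levels in DMSO iPSC. In R1 they stood at 4.55%, 3.76% and 6.74%. Foxd3, Krt18, Dnmt3a and Dnmt3b stood above their MEF levels in both lines. What part fibroblast RNA has in this list was not tested. Otx2 and Pou3f1, the factors best known for the exit from the naive state, were at 5.50 TPM or less in the 4 libraries and not called, and Fgf5 and Wnt8a were under the filter on low values. Nodal, at 45 and 46.7 TPM in DMSO iPSC, against 33.5 and 37.6 TPM in R1, was called only after rescaling (0.55 ± 0.13, adjusted p = 0.0303), and not without any 1 of the 4 libraries (adjusted p 0.104 to 0.166).

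Genes of the two-cell-like state stood higher in DMSO iPSC. Of 22 tested, 10 (45.5%) were called higher and none lower, and each of the 22 had a positive change; the median was 0.82 (0.67 as deposited), against 0.02 over all genes. Without any 1 library 5 to 6 were called higher. These genes are largely the Zscan4 and Usp17l families, whose members are near-identical copies, so that reads can be split between copies and the members are not independent. Zscan4c, a telomere-associated zinc-finger gene that marks the state, had 71.6 and 73.6 TPM in DMSO iPSC, against 38.5 and 37.5 TPM in R1 (1.11 ± 0.14, adjusted p = 0.0039). CD iPSC held Zscan4c at 10.5 and 11.7 TPM and MEF at 0, so the order was DMSO iPSC, R1, CD iPSC. Zscan4a, Zscan4b and Zscan4e rose by 1.37, 1.43 and 1.23 in DMSO iPSC. In bulk libraries, more cells in the state and more of these transcripts per cell cannot be told apart, and this holds for every cell type marker below.

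Of 26 genes listed as FGF and ERK signalling output, 9 (34.6%, against 9.48% of all genes) were called higher in DMSO iPSC and none lower, with a median of 0.55 (as deposited 7 higher and 1 lower, Spred1, with a median of 0.36); without any 1 library 3 to 6 were higher. They were the feedback inhibitors Spry4, Dusp6 and Dusp4 and the growth and immediate-early genes Myc, Ccnd1, Fosl1, Phlda1, Etv1 and Ier3, of which the first 3 kept their call without each library. Spry4, an inhibitor of receptor tyrosine kinase signalling that ERK induces, had 31.2 and 33 TPM in DMSO iPSC, against 11.7 and 10.6 TPM in R1 (1.63 ± 0.16, adjusted p = 0.00198). The ERK phosphatase gene Dusp6 had 34.8 and 36.6 TPM in DMSO iPSC, against 18.8 and 20.9 TPM in R1 (1.01 ± 0.13, adjusted p = 0.00465), and Dusp4, a further phosphatase of the pathway, had 10.0 and 10.2 TPM in DMSO iPSC, against 1.98 and 3.69 TPM in R1 (1.74 ± 0.23, adjusted p = 0.00515). All 3 were lower in CD iPSC than in DMSO iPSC, at most 5.52 TPM. Most members of the feedback loop did not pass, namely Spry1, Spry2, Spred1, Spred2, Spred3, Dusp5 and Il17rd. Spry2 had 70.7 and 75.3 TPM in DMSO iPSC, against 69.2 and 72.1 TPM in R1. The target Etv5, also not called, had 105.9 and 119 TPM in DMSO iPSC, against 106.4 and 105.4 TPM in R1. Myc, a target of several growth pathways, had 39.8 and 37.4 TPM in DMSO iPSC, against 6.39 and 8.36 TPM in R1 (2.44 ± 0.39, adjusted p = 0.00971), with an adjusted p of 0.0527 to 0.0689 when any 1 of the 4 libraries was left out. Among TGF-beta, BMP and Nodal targets 5 of 20 were called higher and 1 lower (median 0.06), among LIF and STAT3 targets 6 of 25 higher and 2 lower (median 0.17; 4 higher and 5 lower as deposited), and among Wnt targets 3 of 17 higher and 2 lower (median 0.18), lists whose medians lay near that of all genes. Within the TGF-beta, BMP and Nodal list, Id3, a BMP-induced inhibitor of differentiation factors, had 53.2 and 60.2 TPM in DMSO iPSC. R1 held 11.6 and 13.1 TPM of Id3 (2.31 ± 0.18, adjusted p = 0.000977), and MEF 187.5 and 240.2 TPM.

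**Figure D2:**
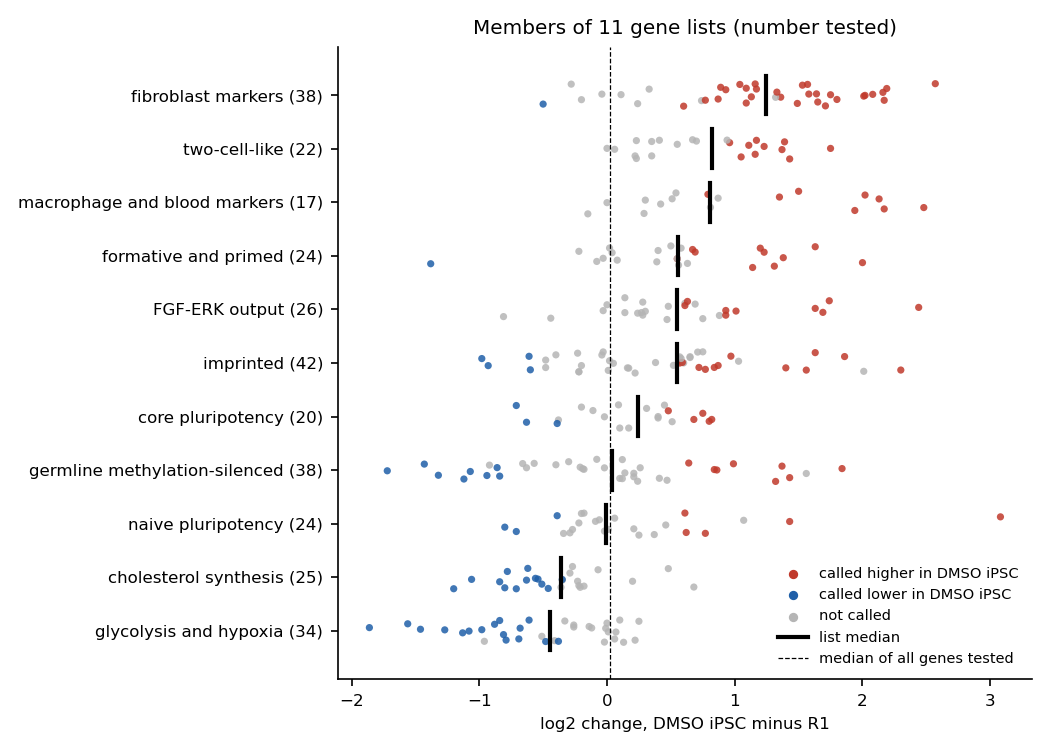
Log2 change (DMSO iPSC minus R1) of each tested member of 11 gene lists, with the list medians as black bars and the median of all genes, 0.02, as a dashed line; red and blue mark members called higher and lower. Fibroblast markers (median 1.25) lie farthest to the right, and the glycolysis and hypoxia list (median -0.44) farthest to the left.

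Fibroblast markers gave the highest median of the lists, 1.25 (1.07 as deposited): 29 of 38 tested (76.3%) were called higher in DMSO iPSC and 1 lower, and 22 to 26 were higher without any 1 library. Acta2, smooth muscle actin, had 224 and 239 TPM in DMSO iPSC, against 59.8 and 69.7 TPM in R1 (2.02 ± 0.10, adjusted p = 0.000189). Thbs1, the matrix protein thrombospondin-1, had 137 and 129 TPM in DMSO iPSC, against 33.8 and 33.0 TPM in R1 (2.16 ± 0.10, adjusted p = 0.000181). Col1a2, a chain of type I collagen, had 74.8 and 76.1 TPM in DMSO iPSC, against 27.6 and 29.5 TPM in R1 (1.57 ± 0.08, adjusted p = 0.000214). In each of these genes both iPSC libraries lay far above both R1 libraries, and CD iPSC, at 64.3 and 62.6 TPM for Acta2 and 32.4 and 32.5 TPM for Col1a2, lay near R1. Fbln2, Tnc, Col1a1, Col3a1, Lox, Thy1, Prrx1 and Vim rose as well. Not called were Lum, Fbln1, Twist1, Twist2, Snai2, Zeb1, Pdgfrb and Fap; Lum, a defining small proteoglycan of fibroblasts, was at most 0.264 TPM in the 4 libraries and at 251 and 244 TPM in MEF. The gelatinase Mmp2 had 7.75 and 7.77 TPM in DMSO iPSC, against 13.6 and 12.5 TPM in R1, and its call (-0.50 ± 0.12, adjusted p = 0.0319) did not hold without any 1 library (adjusted p 0.091 to 0.167).

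The levels were small beside those of the starting cells. The 39 markers summed to 2166 and 2142 TPM in DMSO iPSC, against 947.5 and 961.5 TPM in R1, with 1206 and 1120 TPM in CD iPSC. In MEF the sum was 54440 and 51670 TPM. Over the 35 markers with at least 50 TPM in MEF, the median level as a percentage of MEF was 2.40% in DMSO iPSC (range 0.0316% to 26.6%), against 0.908% in R1 (0.0533% to 35.4%), with 0.691% in CD iPSC. The percentage differed widely between genes: in DMSO iPSC Col3a1 stood at 0.431% of MEF, Col1a1 at 1.50%, Acta2 at 6.43% and Vim at 12.7%, against 0.151%, 0.501%, 1.80% and 6.83% in R1 for the same genes. Genes with 100 TPM or more in MEF made up 332 (20.1%) of the genes called higher and 75 (6.12%) of those called lower, against 9.19% of all genes tested. What part leftover fibroblast RNA has in the other changes was not tested. MEF levels are given above and below for some genes only, and a gene with none given may be expressed there.

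Macrophage and blood markers, included because embryonic fibroblast cultures can hold macrophages, were called higher in 8 of 17 (47.1%) and lower in none, with a median of 0.81; 4 were higher without any 1 library. Lyz2, the lysozyme of macrophages, had 53.5 and 59.9 TPM in DMSO iPSC, against 10.7 and 10.8 TPM in R1 (2.48 ± 0.14, adjusted p = 0.000247), and 869 and 1057 TPM in MEF. The complement genes C1qa and C1qc and the cathepsin gene Ctss also rose, with 5.17 to 5.32 TPM of C1qc in DMSO iPSC, against 0.715 to 0.831 TPM in R1. Over the 7 markers with at least 50 TPM in MEF, the median was 5.99% of the MEF level in DMSO iPSC (range 4.22% to 35.9%). It was 1.12% in R1 (0.755% to 46.0%) and 2.29% in CD iPSC. Cd68, a further macrophage marker, was not called and leaned the other way, at 35.9% of its MEF level in DMSO iPSC, against 46.0% in R1. Receptor genes of the type were low and divided. Adgre1 (F4/80) had 2.40 and 1.27 TPM in DMSO iPSC, against 0.311 and 0 TPM in R1, and was called higher (1.35 ± 0.32, adjusted p = 0.0326), as were Cd14 and Tyrobp. These 3 lost their call without any 1 library (adjusted p 0.065 to 0.194), and Cd14 in the deposited scaling. Csf1r had 1.03 and 1.04 TPM in DMSO iPSC, against 0.642 and 0.404 TPM in R1, and Ptprc had 0.378 and 0.25 TPM in DMSO iPSC and was listed at 0 in R1. Neither Csf1r nor Ptprc was called.

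**Figure D3:**
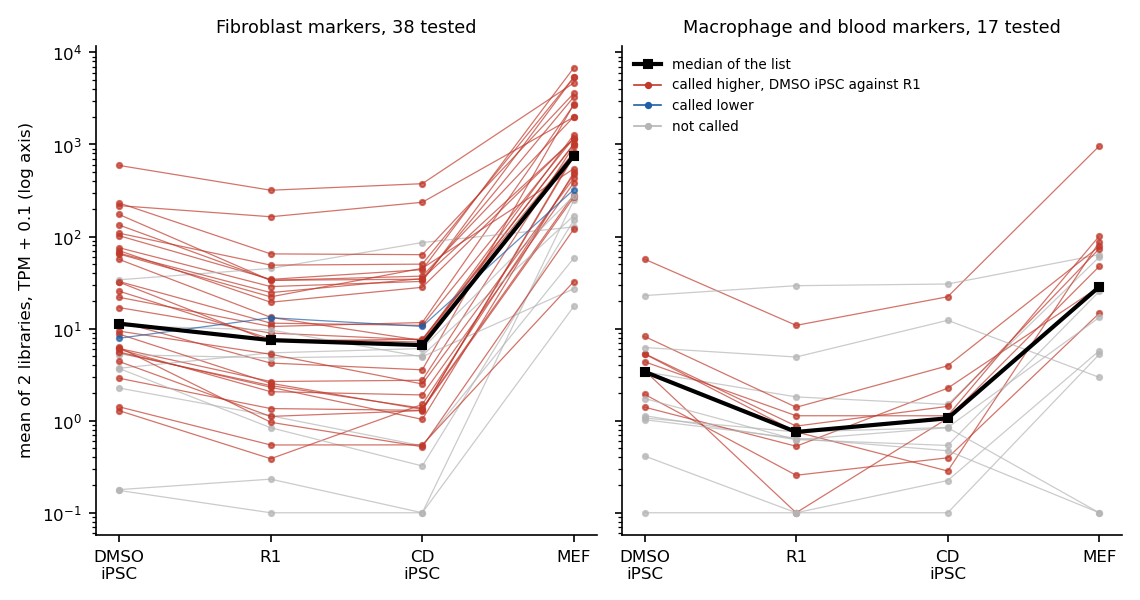
Mean level of each tested fibroblast marker (38) and macrophage and blood marker (17) in the 4 groups of the table, on a log axis with 0.1 TPM added, each line 1 gene and the black line the list median. Lines in red are genes called higher in DMSO iPSC against R1; most of them dip in R1 and CD iPSC and reach their highest level in MEF.

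Several of the larger rises were in secreted or signalling genes that fibroblasts also express. Ptgs2, the inducible cyclooxygenase, had 37.8 and 35.8 TPM in DMSO iPSC, against 5.24 and 3.93 TPM in R1 (2.95 ± 0.21, adjusted p = 0.000549). Csf1, the growth factor of macrophages, had 39.0 and 45.3 TPM in DMSO iPSC, against 8.49 and 8.39 TPM in R1 (2.38 ± 0.12, adjusted p = 0.000195). In DMSO iPSC Ptgs2 stood at 96.7% and Csf1 at 34% of the MEF level. Of 28 inflammatory mediators 6 (21.4%) were called higher and none lower (median 0.14), of which Csf1, Ptgs2 and Cxcl5 kept their call without each library. Of 30 p53 targets and CDK inhibitors 8 (26.7%, against 9.48% of all genes) were called higher and 1 lower (median 0.13), but as deposited 5 higher and 6 lower (median -0.05), so the balance rested on the scaling. Pmaip1 (Noxa), a pro-apoptotic p53 target, had 65.0 and 59.4 TPM in DMSO iPSC, against 24.9 and 20.9 TPM in R1 (1.60 ± 0.14, adjusted p = 0.00124), while Cdkn1a, the best known target, had 95.0 and 105.9 TPM in DMSO iPSC, against 95.6 and 97.1 TPM in R1 and was not called. Cdkn1b, the CDK inhibitor p27, fell to 7.16 and 8.82 TPM in DMSO iPSC, against 23.5 and 22.7 TPM in R1 (-1.24 ± 0.17, adjusted p = 0.00587).

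Markers of other lineages differed from list to list, beside 9.48% of all genes called higher and 7.04% called lower. Extraembryonic endoderm markers gave 5 of 24 higher (20.8%) and 2 lower (8.33%), with a median of 0.20 (3 and 4 as deposited). Trophoblast markers gave 3 of 16 higher (18.8%) and none lower, with a median of 0.61 and 12 of 16 changes positive. Mesoderm and cardiac markers gave 2 of 12 higher (16.7%) and 2 lower (16.7%), with a median of -0.17. Endothelial markers gave 1 of 12 higher (8.33%) and 2 lower (16.7%), with a median of 0.11. Epithelial markers gave 3 of 28 higher (10.7%) and 4 lower (14.3%), with a median of -0.34 (3 and 12 as deposited). Without any 1 library 0 to 3 of each of these lists were higher and 0 to 2 lower. Gata4, Gata6 and Sox17, which define primitive endoderm, were at most 4.11 TPM in DMSO iPSC, against at most 6.28 TPM in R1, and were not called. Neural markers were called higher in 6 of 16 (37.5%) and lower in 1, with a median of 0.22, and 3 to 4 were higher without any 1 library. Tubb3, neuronal tubulin, had 56.4 and 65.6 TPM in DMSO iPSC, against 21.0 and 27.4 TPM in R1 (1.50 ± 0.15, adjusted p = 0.00215). Olig2, a factor of motor neuron and oligodendrocyte progenitors, had 5.61 and 6.22 TPM in DMSO iPSC and was listed at 0 in both R1 libraries (adjusted p = 0.00032). Sox1 and Pax6, the defining genes of neural progenitors, were not called, with Sox1 at 3.22 and 3.49 TPM in DMSO iPSC, against 2.83 and 2.58 TPM in R1.

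Imprinted genes, expressed from 1 parental allele and often disturbed in cultured stem cells, were called higher in 12 of 42 (28.6%, against 9.48% of all genes) and lower in 4 (9.52%, against 7.04%). The median was 0.54 (0.37 as deposited), 29 of 42 changes were positive, and without any 1 library 3 to 6 were called higher and 0 to 1 lower. H19, the maternally expressed noncoding RNA, had 117 and 122 TPM in DMSO iPSC, against 26.8 and 27.4 TPM in R1 (2.30 ± 0.12, adjusted p = 0.000195), and 1410 and 1631 TPM in MEF. Igf2, its paternally expressed neighbour, was at 1.57 and 0.0908 TPM in DMSO iPSC, against 0.593 and 0.534 TPM in R1 and was not called, while MEF held 521 and 451 TPM. H19 was thus at 7.86% of its MEF level in DMSO iPSC, against 1.78% in R1, whereas Igf2 was near 0 in both lines. The noncoding RNAs of the Dlk1-Dio3 cluster, whose silencing marks many iPSC lines of low potency, were expressed: Meg3 had 80.8 and 77.1 TPM in DMSO iPSC, against 44.7 and 56.7 TPM in R1 (0.84 ± 0.15, adjusted p = 0.0142), and Rian 182 and 170.2 TPM in DMSO iPSC, against 129 and 116 TPM in R1 (0.72 ± 0.14, adjusted p = 0.0152). Neither call held throughout when libraries were left out: the adjusted p was 0.0434 (without R1 replicate 2) to 0.0937 for Meg3 and 0.0593 to 0.101 for Rian. MEF held more of both, 291 and 337 TPM of Meg3.

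Of 24 DNA methylation genes tested, 7 (29.2%, against 9.48% of all genes) were called higher and none lower, with a median of 0.20. In the deposited scaling 3 were called, Dppa3 among them, with a median of 0.01, and 1 to 2 without any 1 library. The maintenance enzyme Dnmt1 had 93.7 and 96.3 TPM in DMSO iPSC, against 98.5 and 112 TPM in R1, and its partner Uhrf1 232 and 234 TPM in DMSO iPSC, against 239 and 251 TPM in R1. Neither was called. The de novo enzyme Dnmt3a had 58.8 and 56 TPM in DMSO iPSC, against 23.3 and 18.3 TPM in R1 (1.63 ± 0.38, adjusted p = 0.0303), and the adjusted p was 0.102 to 0.149 when any 1 library was left out and 0.0514 with the replicate number as a block. Germline genes that methylation normally silences were called higher in 8 of 38 (21.1%, against 9.48% of all genes) and lower in 8 (21.1%, against 7.04%), with a median of 0.04. As deposited 7 were higher and 11 lower (median -0.15), and 2 to 4 higher were higher with 3 to 4 lower without any 1 library. Tuba3a, a testis tubulin, fell to 62.5 and 54.4 TPM in DMSO iPSC, against 214 and 232 TPM in R1 (-1.72 ± 0.12, adjusted p = 0.000549); Tuba3b is a close copy, at 7.87 and 8.05 TPM in DMSO iPSC, against 21.0 and 21.1 TPM in R1, so reads may be split between them. Sycp3, a component of the meiotic chromosome axis, fell to 14.8 and 12.8 TPM in DMSO iPSC, against 43.9 and 45.3 TPM in R1 (-1.43 ± 0.15, adjusted p = 0.00259). Taf7l, an X-linked germ cell form of a TFIID subunit, had 21.5 and 22.3 TPM in DMSO iPSC, against 9.48 and 9.40 TPM in R1 (1.32 ± 0.15, adjusted p = 0.00319), and Tex19.1, which holds retrotransposons in check, 115.5 and 129 TPM in DMSO iPSC, against 69.8 and 70.1 TPM in R1 (0.99 ± 0.12, adjusted p = 0.00339). Of the germline genes called higher, Xlr5c, Rhox5, Rhox6 and Rhox9 lie on X like Taf7l. Xlr3a, Xlr3b and Xlr4a, also on X, were not called. Among all protein-coding X genes 23.9% were called higher, against 9.07% of autosomal ones, as given below. The share of this list called higher thus overlaps that of X genes.

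Genes that low oxygen induces were lower in DMSO iPSC. Of 34 glycolysis and hypoxia genes 16 (47.1%, against 7.04% of all genes) fell and none rose, with a median of -0.44 (-0.64 as deposited); without any 1 library 7 to 11 fell. The hypoxia-inducible factors bind the core letters ACGTG in such genes, and the promoters below show the 300 bases around the start of 4 of the called genes, RefSeq windows on GRCm38.p6 running from 250 bases before to 50 after the start, with each match to ACGTG on either strand in capitals (ACGTG, its complement CACGT, or the palindrome CACGTG, which matches on both).
Bnip3 (chr7:138909457-138909756, minus strand): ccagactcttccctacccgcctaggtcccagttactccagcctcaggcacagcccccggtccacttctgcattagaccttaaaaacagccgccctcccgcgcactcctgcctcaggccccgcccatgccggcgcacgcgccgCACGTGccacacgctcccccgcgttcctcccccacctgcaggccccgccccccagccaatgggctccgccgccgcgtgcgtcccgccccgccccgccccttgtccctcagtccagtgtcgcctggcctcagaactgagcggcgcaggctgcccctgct
Aldoc (chr11:78322823-78323122, plus strand): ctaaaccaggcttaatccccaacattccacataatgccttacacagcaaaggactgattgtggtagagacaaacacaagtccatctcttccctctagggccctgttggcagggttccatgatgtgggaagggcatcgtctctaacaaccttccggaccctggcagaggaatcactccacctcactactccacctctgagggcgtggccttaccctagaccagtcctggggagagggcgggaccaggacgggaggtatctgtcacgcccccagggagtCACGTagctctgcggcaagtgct
P4ha1 (chr10:59323046-59323345, plus strand): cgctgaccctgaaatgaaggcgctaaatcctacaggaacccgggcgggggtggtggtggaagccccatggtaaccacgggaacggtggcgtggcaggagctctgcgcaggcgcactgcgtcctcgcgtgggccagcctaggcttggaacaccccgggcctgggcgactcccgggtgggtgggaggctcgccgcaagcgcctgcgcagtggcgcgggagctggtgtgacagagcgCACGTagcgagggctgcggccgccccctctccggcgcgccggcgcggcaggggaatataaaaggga
Slc16a3 (chr11:120948817-120949116, plus strand): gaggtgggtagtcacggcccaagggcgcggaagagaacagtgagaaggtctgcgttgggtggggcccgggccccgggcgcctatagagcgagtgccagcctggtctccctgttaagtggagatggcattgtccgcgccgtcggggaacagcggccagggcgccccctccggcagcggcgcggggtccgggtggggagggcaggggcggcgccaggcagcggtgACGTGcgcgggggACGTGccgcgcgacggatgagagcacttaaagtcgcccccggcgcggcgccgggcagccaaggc

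ACGTG stood in a window of 11 of the 13 called members with a window (84.6%) and of 13 of the 18 members not called (72.2%), against 21.8% of 27025 genes, so the letters did not separate members that fell from those that did not. Bnip3, a mitophagy receptor, fell to 27.6 and 29.4 TPM in DMSO iPSC, against 128 and 116 TPM in R1 (-1.86 ± 0.14, adjusted p = 0.000753). Slc16a3, the lactate exporter, fell to 14.5 and 18.4 TPM in DMSO iPSC, against 50.8 and 56.6 TPM in R1 (-1.46 ± 0.18, adjusted p = 0.0038). Both iPSC libraries were below both R1 libraries for these genes, while CD iPSC lay above R1, with 421 and 512 TPM of Bnip3 and 86.8 and 66.5 TPM of Slc16a3. P4ha1, a subunit of collagen prolyl hydroxylase, had 18.2 and 18.8 TPM in DMSO iPSC, against 43.9 and 41.9 TPM in R1 (-0.98 ± 0.11, adjusted p = 0.00329). Ndrg1, a stress-response gene, had 5.75 and 6.08 TPM in DMSO iPSC, against 17.8 and 18.1 TPM in R1 (-1.27 ± 0.11, adjusted p = 0.0012). Aldoc, an aldolase, and Tpi1, a further enzyme of glycolysis, fell by 1.56 and 0.88.

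Some glycolysis genes were not called, though only 8 of the 34 listed genes had a positive change after rescaling. In the deposited scaling 23 of the 34 were called lower. Pgk1, which was not called, leaned lower, at 97.3% of its MEF level in DMSO iPSC, against 134% in R1. Eno1, Pkm and Gapdh, given next, are among the 8 and were chosen after their values were seen. For Eno1 and Pkm the change was positive only after rescaling, since their deposited TPM were lower in both iPSC libraries. Eno1 had 1476 and 1488 TPM in DMSO iPSC, against 1569 and 1699 TPM in R1 (0.06 ± 0.10), Pkm 1506 and 1466 TPM in DMSO iPSC, against 1528 and 1595 TPM in R1 (0.13 ± 0.12), and Gapdh 258 and 292.5 TPM in DMSO iPSC, against 229 and 307 TPM in R1 (0.25 ± 0.20); none was called. Also among the 10 largest falls of all genes that the naming rule allows was Ndufa4l2, a mitochondrial protein that low oxygen induces, at 4.43 and 3.95 TPM in DMSO iPSC, against 34.3 and 37.7 TPM in R1 (-2.65 ± 0.25, adjusted p = 0.00171). Cox4i2, the cytochrome oxidase subunit form of low oxygen, had 1.60 and 0 TPM in DMSO iPSC, against 12.2 and 22.4 TPM in R1 (-3.32 ± 0.55, adjusted p = 0.0102), with an adjusted p of 0.0567 without DMSO iPSC replicate 2 and 0.0698 without R1 replicate 2, and a change of -4.04 without DMSO iPSC replicate 1 and -2.60 without DMSO iPSC replicate 2. CD iPSC held 129 and 69.4 TPM of Ndufa4l2 and 29.0 and 29.4 TPM of Cox4i2, again above R1.

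Cholesterol synthesis genes were lower as well, 13 of 25 (52.0%) with none higher and a median of -0.36 (-0.56 as deposited); without any 1 library 2 to 3 fell. SREBP2, the factor that drives these genes when sterols are scarce, binds sterol response elements, and Hmgcs1, the synthase of the first committed step, carries 1 copy of TCACNCCAC in its RefSeq window (GRCm38.p6), in capitals here.
Hmgcs1 (chr13:119690101-119690400, plus strand): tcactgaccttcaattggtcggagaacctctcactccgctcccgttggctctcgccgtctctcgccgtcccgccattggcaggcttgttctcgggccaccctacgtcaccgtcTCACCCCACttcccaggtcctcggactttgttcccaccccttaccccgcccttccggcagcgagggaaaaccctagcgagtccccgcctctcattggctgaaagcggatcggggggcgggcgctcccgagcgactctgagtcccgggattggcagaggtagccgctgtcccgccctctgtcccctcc

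Hmgcs1 was the 1 called member of 9 with a window that held TCACNCCAC (11.1%), against 0 of 8 not called and 1.44% of 27025 genes, with both strands searched. It had 100.9 and 96.0 TPM in DMSO iPSC, against 157 and 154 TPM in R1 (-0.46 ± 0.10, adjusted p = 0.0282; 0.103 to 0.154 without any 1 library). The 2 genes that kept their call without each library were Msmo1, a sterol oxidase, at 81.8 and 71.8 TPM in DMSO iPSC, against 198 and 210.4 TPM in R1 (-1.20 ± 0.14, adjusted p = 0.00367), and Cyp51, the lanosterol demethylase, at 49.6 and 47.4 TPM in DMSO iPSC, against 84.6 and 87.2 TPM in R1 (-0.62 ± 0.08, adjusted p = 0.00536). MEF held more of both, 316 and 308 TPM of Msmo1 and 206 and 201 TPM of Cyp51. Each iPSC library was below each R1 library in all 13 genes, as in every gene called lower, so this adds nothing to the calls. Srebf2, which encodes SREBP2, was not called.

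**Figure D4:**
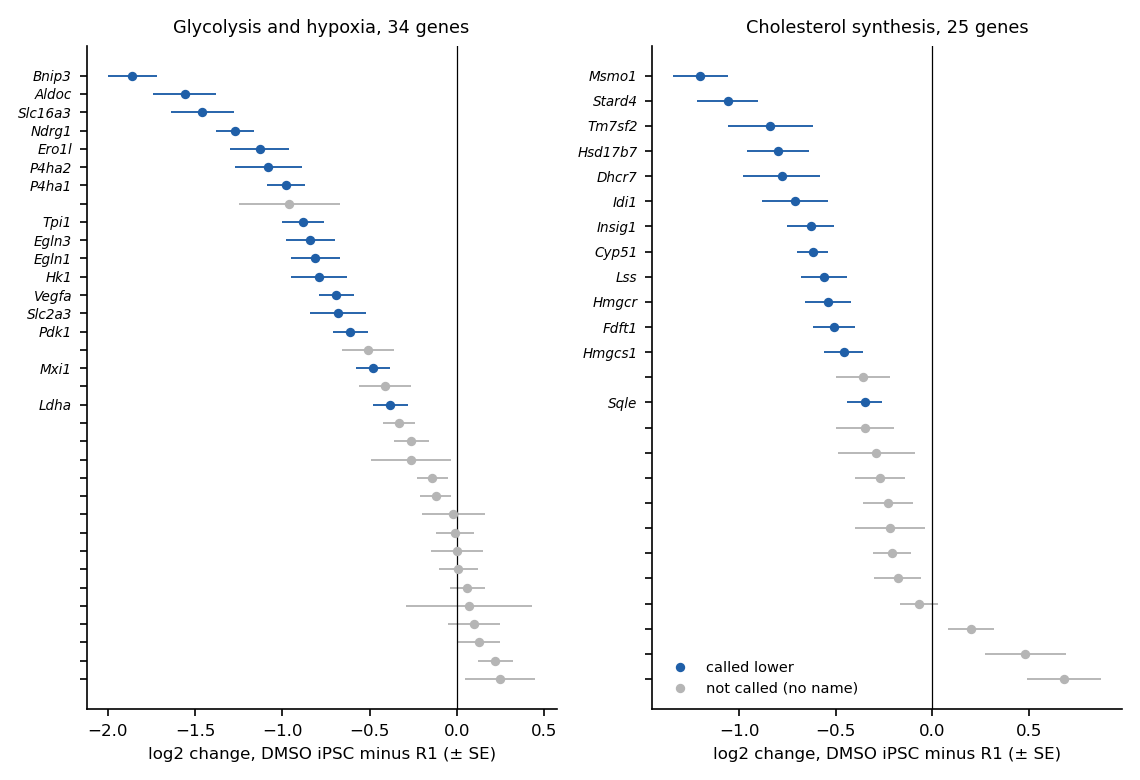
Log2 change (DMSO iPSC minus R1, ± SE) of the 34 glycolysis and hypoxia genes and the 25 cholesterol synthesis genes, sorted, with genes called lower named and in blue and genes not called in grey. Bnip3 (-1.86) and Msmo1 (-1.20) head the lists, and no gene of either list was called higher.

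Other lists moved in part or not at all. Of 28 retinoid genes 5 were called higher and 3 lower (median 0.20); Stra8, which retinoic acid induces in germ cells, fell to 47.7 and 44.9 TPM in DMSO iPSC, against 98.7 and 100.1 TPM in R1 (-0.89 ± 0.10, adjusted p = 0.00303), and Rxra, a retinoid X receptor, had 10.3 and 10.7 TPM in DMSO iPSC, against 11 and 9.38 TPM in R1 and was not called. Of 28 RNA exosome genes 1 was called higher and 2 lower (median 0.07; none higher and 5 lower as deposited). Dis3, the catalytic subunit of the nuclear exosome, fell to 61.2 and 58.8 TPM in DMSO iPSC, against 131 and 126 TPM in R1 (-0.89 ± 0.12, adjusted p = 0.00495), while the core subunit gene Exosc3 had 62.2 and 48.3 TPM in DMSO iPSC, against 54.6 and 72.6 TPM in R1, with overlapping libraries and a change of -0.18 to 0.18 as single libraries were left out. Of 36 interferon-stimulated genes 2 were called higher and 4 lower (median 0.00), and of 18 antigen presentation genes 3 higher (0.08), with B2m at 79.0 and 74.2 TPM in DMSO iPSC, against 47.7 and 52.8 TPM in R1 (0.80 ± 0.10, adjusted p = 0.00489) and 1286 and 1407 TPM in MEF. Of 35 cell cycle genes 7 (20.0%) were called lower and 3 higher (median -0.07; 13 and 2 as deposited); Ccnb2, a mitotic cyclin, fell to 112.0 and 111.6 TPM in DMSO iPSC, against 218 and 224 TPM in R1 (-0.78 ± 0.08, adjusted p = 0.00227). Of 15 mitochondrially encoded genes 3 were called higher and all 15 had a positive change (median 0.51), but none kept its call without any 1 library. Of 27 serine, threonine and one-carbon genes 4 (14.8%, against 9.48% of all genes) were called higher and none lower (0.06), but 2 higher and 5 lower as deposited (-0.14). Of 16 histone variants and linker histones 3 were called higher and none lower (0.44), and 1 each way as deposited (0.24). Of 36 Hox genes 2 (5.56%, under the share of all genes) were called higher and none lower (0.17). Some Hox genes passed the filter through their MEF level, and Hoxa6, Hoxd10 and Hoxd12 were at 0 in both lines. Genes near 0 in both lines could hardly be called, so the low share does not show that the list was unmoved.

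Genes on the X chromosome stood apart in a breakdown by chromosome that was chosen after values had been seen. Of 532 protein-coding X genes tested, 127 (23.9%) were called higher in DMSO iPSC and 4 (0.752%) lower, against 9.07% and 7.68% of 13409 autosomal protein-coding genes. The median change on X was 0.36 (0.20 as deposited) and 433 genes (81.4%) had a positive change, whereas the medians of the 19 autosomes ran from -0.07 to 0.06 and their shares of positive changes from 43.2% to 56.1%. Without any 1 library the X median stayed between 0.33 and 0.37, and 37 to 41 X genes were called higher. The ratio of the median TPM of 322 X genes to that of 9567 autosomal genes, all at 1 TPM or more in each of the 8 libraries, was 1.03 and 0.957 in DMSO iPSC, against 0.868 and 0.789 in R1, with 0.895 and 0.974 in CD iPSC and 0.919 and 0.91 in MEF. R1 was thus the lowest of the 4 groups. The shift ran along the chromosome: in windows of 40 Mb its median lay between 0.18 and 0.48.

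The X genes that rose differed in kind. Tmsb4x, a small actin-binding protein, had 1349 and 1246 TPM in DMSO iPSC, against 671 and 605 TPM in R1 (1.22 ± 0.15, adjusted p = 0.00408), and Rbm3, a cold-induced RNA-binding protein, 497 and 526 TPM in DMSO iPSC, against 302 and 274 TPM in R1 (1.03 ± 0.14, adjusted p = 0.00515). Utp14a, a ribosome biogenesis factor, had 72.0 and 79.3 TPM in DMSO iPSC, against 38.7 and 35.6 TPM in R1 (1.20 ± 0.12, adjusted p = 0.00174). These 3 were chosen after their values were seen; in each, both iPSC libraries were above both R1 libraries. MEF held 3954 and 4598 TPM of Tmsb4x, 430 and 436 TPM of Rbm3 and 26.1 and 29.0 TPM of Utp14a. Over the 47 X genes at 100 TPM or more in MEF the median change was 0.44, against 0.14 for autosomal genes at that level, and over the 485 X genes under 100 TPM in MEF it was 0.33, against -0.01 for autosomal genes. Xist, the noncoding RNA that coats an inactive X, had 1.47 and 0.963 TPM in DMSO iPSC, against 0.759 and 0.543 TPM in R1 and was not called (0.51 ± 0.22, adjusted p = 0.157); MEF held 24.6 and 18.2 TPM. Y-linked genes were expressed in both lines. Of 8 protein-coding Y genes tested, 1 was called, Uba1y, which was named after its values were seen and fell to 2.77 and 3.14 TPM in DMSO iPSC, against 9.70 and 11.4 TPM in R1 (-1.38 ± 0.17, adjusted p = 0.00392). The more abundant Y genes were not called, with Ddx3y at 33.2 and 27.4 TPM in DMSO iPSC, against 37 and 31.3 TPM in R1, and Eif2s3y at 59.0 and 51.0 TPM in DMSO iPSC, against 71.9 and 81.6 TPM in R1. Of the 15 members of the X inactivation and Y-linked list tested, which did not hold Uba1y, none was called by limma and 4 had an unadjusted p under 0.05.

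**Figure D5:**
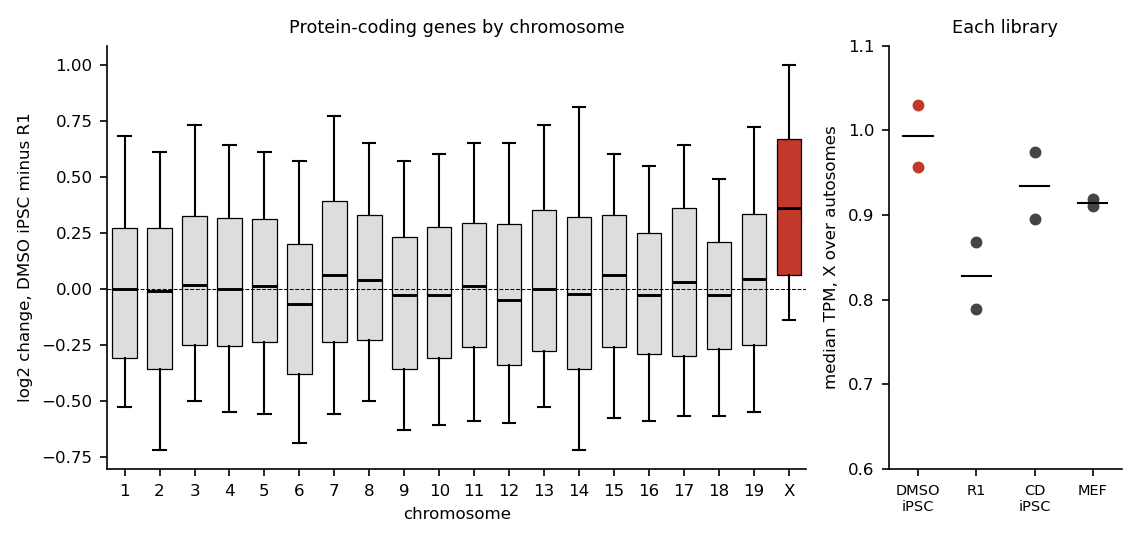
Left, log2 change (DMSO iPSC minus R1) of protein-coding genes by chromosome, with boxes from the lower to the upper quartile, medians as bars and whiskers from the 10th to the 90th percentile; X (red) has a median of 0.36 and autosomes -0.07 to 0.06. Right, the ratio of the median TPM of X genes to that of autosomal genes in each library (points) with group means (bars), on an axis that does not start at 0; both R1 libraries, 0.868 and 0.789, lie lowest.

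The largest changes that the naming rule allows began with genes of few known ties to pluripotency. Apoa2 (chr1:171225054-171226379), an apolipoprotein of high-density lipoprotein, had 14.7 and 20.0 TPM in DMSO iPSC and was listed at 0 in both R1 libraries (adjusted p = 0.000181); CD iPSC held at least 16.3 TPM in both libraries and MEF 0. Ppbp, a platelet chemokine, had 9.33 and 12.7 TPM in DMSO iPSC and was listed at 0 in R1 and CD iPSC, with 6.88 and 9.22 TPM in MEF. Miip, an inhibitor of cell migration, had 21.1 and 19.9 TPM in DMSO iPSC, against 1.99 and 1.98 TPM in R1 (3.01 ± 0.19, adjusted p = 0.000366), with 18.1 to 23.2 TPM in CD iPSC and 12.8 to 18.5 TPM in MEF. For Miip and Apoa2, R1 was therefore the low line beside both iPSC. The long noncoding gene AC131065.2, the serpin gene Serpina3m, AA467197 and Dppa3 and Ptgs2, given above, complete the robust rises; AC131065.2 had 56.8 and 62.5 TPM in DMSO iPSC, against 4.25 and 4.45 TPM in R1, and at most 1.35 TPM in CD iPSC. Ppp2r3d (3.2 ± 0.59) lost its call without DMSO iPSC replicate 1 (2.44, adjusted p = 0.0748), R1 replicate 1 (adjusted p = 0.0591) or R1 replicate 2 (adjusted p = 0.0904), and moved to 3.97 without DMSO iPSC replicate 2. The noncoding Platr5 (2.96 ± 0.48) lost its call without DMSO iPSC replicate 2 (adjusted p = 0.0756), with 3.65 and 2.27 without R1 replicates 1 and 2. Among the falls, Fxyd6, a regulator of the sodium pump, had 18.1 and 20.7 TPM in DMSO iPSC, against 103.0 and 105.4 TPM in R1 (-2.17 ± 0.11, adjusted p = 0.000207), and A2m, a protease inhibitor, 1.83 and 2.87 TPM in DMSO iPSC, against 19.11 and 18.47 TPM in R1 (-2.41 ± 0.21, adjusted p = 0.00124). Sap25, Mia, Dnaic2, Nxph4 and Plk5 fell by 2.59, 2.32, 2.17, 2.07 and 2.02; with only the 4 libraries fitted, Sap25 (adjusted p = 0.058) and Mia (adjusted p = 0.0532) were not called. Abi3 (-2.64 ± 0.59, adjusted p = 0.027) lost its call without any 1 library (adjusted p 0.056 to 0.15), with -3.25 and -2.03 without DMSO iPSC replicates 1 and 2.

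Copies of multicopy genes gave larger differences than these. They were named after their values were seen, and reads from near-identical loci can be split, so their levels are uncertain. Of 35 genes called with a change of at least 8-fold and a mean of 5 TPM or more in the higher line, 13 were processed pseudogenes, of 1584 tested, and 15 were protein-coding, of 13962 tested. Gm10260, a retrogene, had 771 and 879 TPM in DMSO iPSC, against 15.5 and 15.5 TPM in R1 (5.84 ± 0.14, adjusted p = 1.92e-05), with 976 and 705 TPM in CD iPSC and 630.3 and 698 TPM in MEF. The ferritin copy Ftl2-ps went the other way, at 29.9 and 40.5 TPM in DMSO iPSC, against 623 and 781 TPM in R1 (-4.09 ± 0.24, adjusted p = 0.000295), with 27.5 to 46.2 TPM in CD iPSC and 40.4 to 47.9 TPM in MEF. In both, the 3 groups of OG2X129 origin lay together and R1 apart. The gene Ftl1, ferritin light chain, had 3788 and 4490 TPM in DMSO iPSC, against 1855 and 2209 TPM in R1 (1.23 ± 0.22, adjusted p = 0.014), the opposite direction to its copy Ftl2-ps, and 5253 and 6119 TPM in MEF. The call for Ftl1 needed all 4 libraries, with an adjusted p of 0.0623 to 0.0987 when any 1 was left out. Whether reads moved between the gene and its copies was not tested.

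A microRNA family lies in part on such copies. The 109 bases of Mir692-2 overlap Ftl2-ps by 91 bases on the same strand, and Mir692-3 lies wholly within Ftl1-ps1, so these values can count the same fragments as the ferritin copies and are not separate examples. All 109 bases of Mir692-2 also lie within the gene Grik3 on the same strand. The 3 Mir692 genes share 1 mature sequence, shown because the loci are alike in it, with the seed (bases 2 to 8) in capitals (RefSeq, GRCm38.p6).
Mir692-1 (chr17:6895259-6895279, minus strand): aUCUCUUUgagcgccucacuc
Mir692-2 (chr4:125504805-125504825, plus strand): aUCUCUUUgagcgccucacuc
Mir692-3 (chr13:74407121-74407141, plus strand): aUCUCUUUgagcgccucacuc

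The hairpins of Mir692-1 and Mir692-2 are 94.6% identical as well. Mir692-1 had 0.232 and 0 TPM in DMSO iPSC, against 38.3 and 33.0 TPM in R1, and was listed at 0 in CD iPSC and MEF. Mir692-2 had 1.07 and 1.78 TPM in DMSO iPSC, against 34.7 and 44.3 TPM in R1 (-3.91 ± 0.28, adjusted p = 0.00066). Each R1 library was far above each iPSC library at both loci. Ftl1-ps1 fell as well, to 48.2 and 55.9 TPM in DMSO iPSC, against 177 and 226 TPM in R1 (-1.73 ± 0.18, adjusted p = 0.00256). The labels name total RNA and no small RNA step, so the values count fragments over these loci and not mature microRNA.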

How the data were processed

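RNA-seq of total RNA was deposited by the authors as TPM per gene. Per the submitters' processing notes, the tools named were fastp 0.20.1, HISAT2 2.1.0 and StringTie 2.0, with the mm10 build. Of 55401 gene identifiers, 54349 matched the GENCODE M21 annotation with version and 792 by identifier alone. Genes at 1 TPM or more in at least 2 of the 8 libraries of the table were tested. A gene can pass this filter through MEF or CD iPSC alone, and a gene near 0 in both lines could hardly be called. Such genes, among them the inflammatory mediators Ccl5 and Il6, at 0 in both lines, count in the list shares. Each library was then divided by a scale factor, the median over genes at 1 TPM or more in all 8 of its TPM over that gene's geometric mean. limma 3.58.1 (R 4.3.3) fitted 1 mean per group to log2(TPM + 1) over all 8 libraries, with eBayes trend, 2-sided, and Benjamini-Hochberg adjustment over all tested genes. This log scale understates changes of low genes. Printed TPM are as deposited; log2 changes are after rescaling. The fit was tested on simulated data.

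The named genes are always Pou5f1, Sox2, Nanog, Xist, Rxra and Exosc3, the 10 largest changes per direction among named protein-coding or long noncoding genes called in both scalings without overlap and with a mean of 5 TPM or more in the higher line, and up to 4 members per list by p. Other members named beside these were chosen after their values were seen. The 33 lists and the comparison itself were chosen with earlier results of these data known. Replicate numbers did not pair libraries: deviations of same-numbered DMSO iPSC and R1 libraries correlated at 0.059. Single-gene values of 2 genes are not reported here.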

Additional observations from a re-analysis of the deposited data

How the results depend on the processing

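Over the 16 alternatives tried, none of the 121 called genes that the naming rule gives changed sign, while Exosc3, not called, took both signs. The rule took only genes called in both scalings, and the libraries of called genes do not overlap. The deposited scaling could therefore lose none of these calls, and leaving out 1 library could hardly turn a sign. For these alternatives the unchanged signs add nothing to the calls. The balance of calls turned, from more higher in the rescaled values to more lower in the deposited scaling (1101 higher) and with TPM computed without mitochondrially encoded genes (1234 higher). With quantile normalization the balance was near even, at 1485 higher and 1490 lower. Of the 121 calls 16 were lost with the 4 libraries alone, 12 with the 6 pluripotent libraries, 8 with a pseudocount of 0.1 (Gbx2, Zic5 and Myc among them), 8 with no filter, 4 with the replicate block and 36 to 45 when 1 library was left out. Genes called lower numbered 2567 in the deposited scaling, 1876 with TPM computed without mitochondrially encoded genes and 805 with the 6 pluripotent libraries alone, against 1226; the 2-fold count was 762 lower as deposited, and 242 higher and 104 lower with a pseudocount of 5, against 746 and 458. Leaving out 1 library gave 466 to 530 higher and 292 to 359 lower, and with the 2-fold minimum 414 to 466 higher and 240 to 280 lower; fewer libraries were then fitted, and a lone library was assumed to vary like the others. With the replicate number as a block, 1208 genes were called higher and 847 lower. Depth is not known from TPM, so low genes carry counting error that could not be set apart.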
